A study of Rattus norvegicus with 20 samples.

Results

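The effect of C4BP on INS-1 cells that were also given IAPP was read from 10 of 20 arrays, the 5 titled C4BP and the 5 titled IAPP. INS-1 is a rat insulinoma line used as a model of the insulin-secreting beta cell. IAPP, or amylin, is a beta-cell peptide that aggregates into amyloid, and C4BP (C4b-binding protein) is a plasma inhibitor of complement. Cells of 5 separately grown clones, kept for 10 passages, were plated at 100000 per well and treated about 48 h later. Arrays titled IAPP are read as cells given 77 uM IAPP alone, and those titled C4BP as cells given 77 uM IAPP with 0.6 uM C4BP. C4BPD is read as 0.6 uM C4BP without IAPP and DMSO as 1% of the solvent, 5 arrays each. RNA was taken after 10 h. The labels do not say whether an array's number names a clone or whether wells shared a culture, so p-values measure the spread between these samples, which may be technical. The protocols of the samples state 300 ug/ml for both proteins in place of the molar doses.

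Groups follow the word in each title, and a separate treatment field goes against it in most arrays. That field matches the title in 0 of the 5 arrays titled C4BP, 1 of the 5 titled IAPP and 3 of all 20. Every direction below therefore rests on the titles, and "C4BP" and "IAPP" below mean the arrays so titled. Grouped by the treatment field, 0 genes passed the limma threshold in the same comparison, and 553 had an unadjusted p under 0.05.

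Values are intensities, the brightness of a probe set on an arbitrary linear scale after the authors' normalization. Array medians ran from 170.0 to 182.4 over the 10 arrays. Each of 18166 genes was represented by 1 probe set, and differences were tested on the log2 scale with limma, with p-values adjusted over all genes by Benjamini-Hochberg and a threshold of 0.05, two-sided. Folds and tests set a probe set only against itself on other arrays; the median of all probe sets is used as a rough mark of a dim or bright signal, not to rank genes. The number of arrays limits the precision. Levels are means ± SD over 5 arrays, and folds are ratios of geometric means.

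The added protein left most of the transcriptome without a detected difference, and the genes that rose most were Id3 and Id1. C4BP and IAPP differed in 110 genes, 0.606% of those tested. Of these, 68 rose (0.374% of the genes tested) and 42 fell (0.231%). Differences were small outside a few genes: 3 genes rose at least 2-fold (Id3, Id1 and Plekhg6) and 0 fell as far, while the median size among the 110 was 0.28 on the log2 scale, or 1.22-fold. In 63 of the rising and 39 of the falling genes the 5 C4BP arrays did not overlap the 5 IAPP arrays, against 433 genes (2.38%) of all those tested, 1.48% with C4BP higher and 0.903% with C4BP lower. The count fell by over 1.5 times in 5 of the 10 fits that left out 1 array, to 58 without IAPP 3, 64 without C4BP 4, 66 without IAPP 2, 67 without IAPP 4 and 73 without C4BP 5. Of the 110 genes, 48 passed in each of those 10 fits. With the 10 arrays alone in the fit 33 genes passed, with arrays centred on their median 70, with dim genes left out 202, and between 18 and 66 without all 4 arrays of 1 number.

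**Figure D1:**
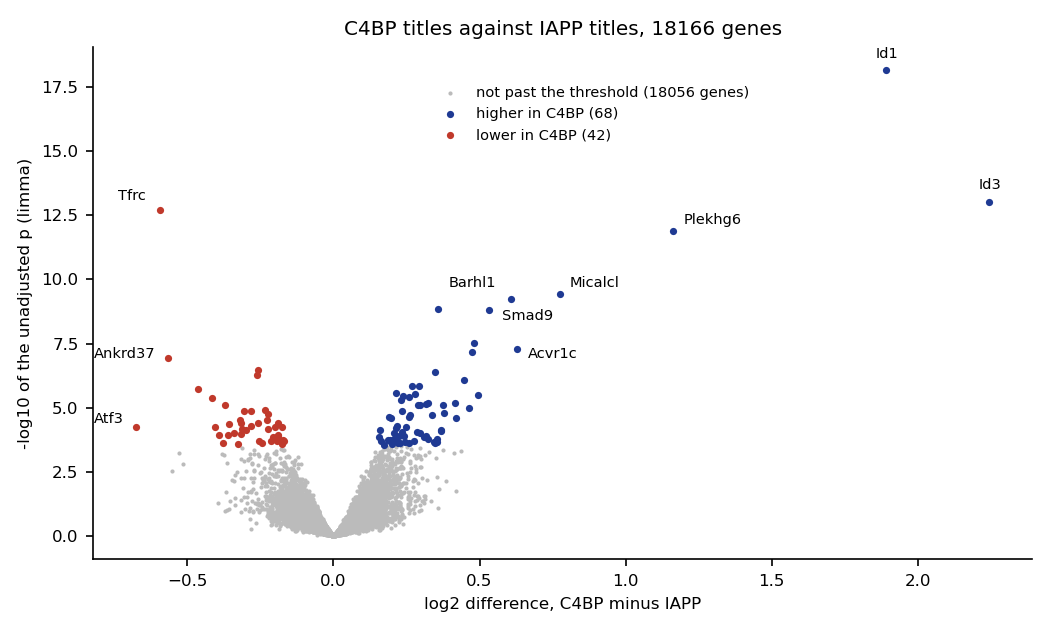
Each point is 1 of 18166 genes, with the log2 difference between C4BP and IAPP arrays on the x axis and -log10 of the unadjusted limma p on the y axis. The 68 higher genes are blue and the 42 lower ones red, with Id3, Id1 and Plekhg6 on the far right and Tfrc, Atf3 and Ankrd37 on the far left.

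BMPs are secreted ligands of the TGF-beta family that bind paired type I and type II receptor kinases. Active type I receptors phosphorylate the SMAD proteins SMAD1, SMAD5 and SMAD9, which join SMAD4, enter the nucleus and switch on target genes. Genes for Id proteins are classical targets, and the pathway also induces its own inhibitors, such as SMAD6, SMAD7 and BAMBI. Id proteins bind helix-loop-helix transcription factors and keep them off DNA. In beta cells the pathway is known for effects on insulin secretion and on the mature identity of the cell.

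Genes listed for the BMP and TGF-beta family made up 9 of the 110. Across those 5 lists of ligands, receptors, SMAD proteins, antagonists and targets, 8 of 89 measured members rose, 1 fell and 80 did not pass, with a median difference of 0.01 against 0.00 over all genes. Of all genes tested 0.374% rose and 0.231% fell. Leaving out 1 of the 10 arrays gave between 6 and 8 members past the threshold. The lists were assembled with earlier results of these data known, so their counts are descriptions.

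Id3 and Id1, both on the list of targets, moved furthest, while 12 of the 16 targets did not pass. Id3, an inhibitor of helix-loop-helix factors, read 262, 284, 303, 351 and 305 in IAPP 1 to 5. It read 1172, 1425, 1365, 1638 and 1551 in C4BP 1 to 5. All 5 C4BP arrays lay far above all 5 IAPP arrays, a 4.74-fold rise (log2 difference 2.25, SE 0.13; limma, adjusted p = 8.35e-10). The related Id1 read 564, 602, 634, 666 and 575 in IAPP and 2202, 2290, 2224, 2372 and 2173 in C4BP. The groups again lay well apart, with a 3.71-fold rise (log2 difference 1.89, SE 0.06; limma, adjusted p = 1.25e-14). Id4 read 1219, 1455, 1292, 1382 and 1470 in IAPP against 1665, 1959, 1941, 2051 and 1991 in C4BP. Its groups did not overlap either, although C4BP 1 stood nearer the IAPP arrays than the other 4, and the rise was 1.41-fold (adjusted p = 0.00277). The call was lost without all arrays of number 4 (0.0651). In DMSO Id4 was at 1707 ± 201, and IAPP alone lay lower (limma, adjusted p = 0.0234). C4BP against DMSO did not pass (adjusted p = 0.257), nor did C4BPD against DMSO (0.0571). The fourth family member, Id2, sat at 135 ± 6.46 in IAPP and 145 ± 5.27 in C4BP, groups that overlap (log2 difference 0.10, adjusted p = 0.391).

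Atoh8, a helix-loop-helix factor listed among the BMP targets, rose from 262 ± 33.6 to 334 ± 26.4, 1.28-fold (limma, adjusted p = 0.0414). That call held in only 2 of the 10 fits without 1 array, those without C4BP 1 or without IAPP 2, and its adjusted p reached 0.134 in the others. It was 0.19 with the 10 arrays alone and 0.0652 after quantile normalization. The targets that did not pass include Hes1, a Notch and BMP target (log2 difference 0.06), the homeobox genes Msx1 (-0.09) and Msx2 (-0.09), and Hamp, which encodes the iron hormone hepcidin (0.01). Among 11 helix-loop-helix genes listed as possible partners of Id proteins, 0 passed in limma with all 18166 genes in the adjustment. At an unadjusted p under 0.05 there were 3 (27.3%), against 1440 (7.93%) of all genes. The partners include the E protein gene Tcf3 (-0.01) and Neurod1, a beta-cell factor (-0.02). Bhlhe40, a circadian repressor, was at -0.21 (adjusted p = 0.13).

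**Figure D2:**
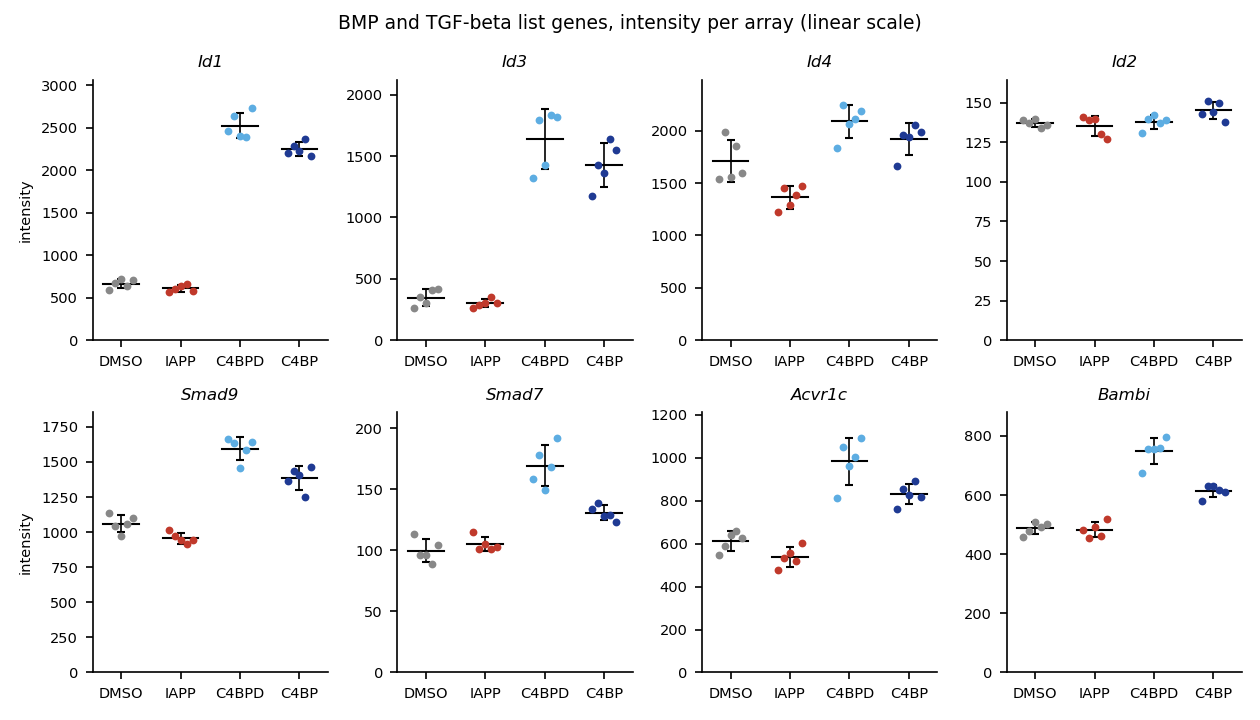
Intensity of 8 genes of the BMP and TGF-beta lists on each of the 20 arrays, linear y axis from 0, in DMSO, IAPP, C4BPD and C4BP. Points are arrays, horizontal bars are means and error bars SD over 5 arrays; Id1 and Id3 in C4BP stand clear of IAPP, while Id2 overlaps.

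Among 8 SMAD genes, Smad9 and Smad7 rose and 6 did not pass. Smad9, the third BMP-responsive SMAD, read 1016, 971, 945, 912 and 941 in IAPP and 1367, 1439, 1407, 1253 and 1466 in C4BP. The 2 sets of arrays did not overlap, and the rise was 1.45-fold (SE 0.05 on the log2 scale; limma, adjusted p = 3.41e-06). Smad7, an inhibitory SMAD, read 115, 101, 105, 101 and 103 in IAPP and 134, 139, 128, 129 and 123 in C4BP. Its groups did not overlap, with IAPP 1 the nearest to the C4BP arrays, and the rise was 1.25-fold (adjusted p = 0.0299). Both levels lay under 176.7, the median of all probe sets, and the call held only without IAPP 1 or without C4BP 5 among the 10 fits that left out 1 array (adjusted p up to 0.0885 in the others). The other inhibitory SMAD, Smad6, was at 212 ± 8.04 and 219 ± 12.2 (log2 difference 0.04, adjusted p = 0.959). Smad1, Smad5 and Smad4, which carry the BMP signal with Smad9, were at 0.00, -0.06 and -0.01 on the log2 scale. Smad2 and Smad3, which serve the TGF-beta and activin branch, were at -0.02 and -0.03.

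Acvr1c was 1 of 15 receptor genes measured and the one that rose. It encodes ALK7, a type I receptor of the activin and nodal branch that beta cells express. Intensities were 477, 532, 555, 521 and 604 in IAPP and 761, 855, 827, 890 and 819 in C4BP. Every C4BP array exceeded every IAPP array, and the rise was 1.55-fold (log2 difference 0.63, SE 0.07; limma, adjusted p = 9.69e-05). The BMP type I receptor Bmpr1a was at 2014 ± 104 and 2019 ± 123, and the type II receptor Acvr2a at 532 ± 28.6 and 551 ± 43.4, with log2 differences of 0.00 and 0.05. Bmpr2 was at 68.6 ± 3.54 and 68.7 ± 4.25, far under the median of all probe sets.

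Bambi, a receptor-like protein without a kinase that dampens BMP and TGF-beta signals, rose alone among 22 antagonists and feedback genes. It read 483, 456, 493, 463 and 520 in IAPP and 581, 632, 631, 618 and 611 in C4BP, groups that do not overlap. The rise was 1.27-fold (log2 difference 0.35, SE 0.05; limma, adjusted p = 0.000509). The secreted BMP traps Nog (-0.01) and Grem1 (0.01) and the ubiquitin ligases Smurf1 (0.02) and Smurf2 (-0.06), which act on SMADs and receptors, did not pass.

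Of 28 ligand genes, 1 passed, and downwards. Bmp3, an atypical member that opposes other BMPs, read 1916, 1853, 1837, 1683 and 1683 in IAPP and 1548, 1379, 1450, 1368 and 1464 in C4BP. Every C4BP array lay below every IAPP array, a 1.24-fold fall (limma, adjusted p = 0.0273). In DMSO its mean was 1329 ± 133, so the C4BP level lay between the solvent and the IAPP arrays. The fall passed in 3 of the 10 fits without 1 array, those without C4BP 1, IAPP 4 or IAPP 5, with adjusted p up to 0.0878 in the others and 0.0886 with arrays centred on their median. Bmp2 (-0.05), Bmp4 (-0.02), Gdf11 (-0.11) and Inhbb (0.02), which encode secreted ligands of the family, did not pass.

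The windows before the start of 4 of these genes are shown because SMAD proteins of the BMP branch bind GC-rich elements near their targets. The sequences are the 250 bases before the annotated start, from RefSeq on GRCr8, 5′ to 3′ on the gene's strand, and capitals mark GGCGCC, a GC-rich SMAD element that reads the same on both strands.
Id1 (chr3:161671314-161671563, plus strand): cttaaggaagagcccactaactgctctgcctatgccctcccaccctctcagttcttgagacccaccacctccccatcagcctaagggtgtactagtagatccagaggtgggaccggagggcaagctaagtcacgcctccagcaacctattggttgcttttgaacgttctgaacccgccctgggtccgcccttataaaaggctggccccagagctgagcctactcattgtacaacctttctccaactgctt
Id3 (chr5:153656041-153656290, plus strand): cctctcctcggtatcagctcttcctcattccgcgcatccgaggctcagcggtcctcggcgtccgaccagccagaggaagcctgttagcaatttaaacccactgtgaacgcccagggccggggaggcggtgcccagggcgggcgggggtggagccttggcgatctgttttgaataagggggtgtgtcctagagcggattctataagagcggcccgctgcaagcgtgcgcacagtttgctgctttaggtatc
Smad9 (chr2:141106418-141106667, plus strand): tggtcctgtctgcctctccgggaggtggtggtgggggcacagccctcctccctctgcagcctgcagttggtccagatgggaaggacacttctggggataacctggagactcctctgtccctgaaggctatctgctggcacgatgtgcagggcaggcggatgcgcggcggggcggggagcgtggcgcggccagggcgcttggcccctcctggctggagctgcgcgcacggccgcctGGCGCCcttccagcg
Bambi (chr17:58821004-58821253, minus strand): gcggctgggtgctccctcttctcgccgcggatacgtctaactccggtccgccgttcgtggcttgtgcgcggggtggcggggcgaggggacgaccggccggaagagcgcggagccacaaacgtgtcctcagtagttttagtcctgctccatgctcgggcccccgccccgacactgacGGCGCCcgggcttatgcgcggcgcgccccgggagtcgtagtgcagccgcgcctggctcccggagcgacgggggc
Counted from 250 bases before to 50 after the start, GGCGCC occurred in 4 of the 9 called genes of the BMP and TGF-beta lists, Smad9, Bambi, Id4 and Smad7. The same letters occur in 11% of 33469 rat promoter windows, a share not matched for GC content. Outside those lists, the window of Tfrc, which fell, held GGCGCC, and the windows of Slc11a2, which also fell, did not. The Id1 and Id3 windows, of the genes that rose most, held none. The SMAD box GTCT, searched on both strands, is in 88.8% of all windows, in that of Id1 and not in that of Id3. These matches describe the letters of the windows, and binding was not measured.

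Iron genes passed the threshold in few members but included the fall with the smallest p. Cells take up iron as transferrin through the transferrin receptor, carry it across the endosome through a divalent metal transporter, store it in ferritin and release it from heme with heme oxygenase. Of 32 measured genes of iron uptake, storage, export and heme, Tfrc and Slc11a2 fell, Hmox1 rose and 29 did not pass, with a median of 0.04. Of all genes tested 0.231% fell and 0.374% rose. At an unadjusted p under 0.05 in limma there were 10 iron genes (31.2%), against 7.93% of all genes.

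Tfrc, the transferrin receptor, read 5486, 5756, 5544, 5647 and 5555 in IAPP and 3882, 3727, 3649, 3672 and 3598 in C4BP. The 2 groups were far apart, and the level fell by 0.60 on the log2 scale, 1.51-fold (SE 0.03; limma, adjusted p = 1.18e-09). Slc11a2, the divalent metal transporter DMT1, read 1538, 1519, 1565, 1441 and 1423 in IAPP and 1329, 1340, 1323, 1281 and 1292 in C4BP. There was no overlap between groups, and it fell by 0.19 on the log2 scale (adjusted p = 0.0141). The call was lost without IAPP 3 (0.0579), with the 10 arrays alone (0.124), with arrays centred on their median (0.109) and without all arrays of any 1 number (up to 0.133). Hmox1, heme oxygenase, read 391, 445, 353, 441 and 421 in IAPP and 585, 541, 462, 577 and 501 in C4BP. The lowest C4BP array lay just above the highest IAPP array, a 1.30-fold rise (adjusted p = 0.00734, but 0.116 with the 10 arrays alone and up to 0.089 without number 1, 2 or 4). In DMSO Hmox1 was at 244 ± 7.32, so both groups with IAPP lay above the solvent.

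The ferritin chains Fth1 (7990 ± 237 and 7928 ± 272) and Ftl1 (11596 ± 448 and 12160 ± 485), the exporter Slc40a1 (log2 difference 0.03) and the iron sensors Aco1 (0.03) and Ireb2 (-0.03) did not pass. Biliverdin reductase Blvrb, which acts after heme oxygenase, was at 0.30 with adjusted p = 0.0589.

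On the metallothionein and NRF2 antioxidant lists 1 gene each rose, where 0.374% of all genes rose. At an unadjusted p under 0.05 in limma there were 2 of 10 (20%) and 4 of 15 (26.7%), against 7.93% of all genes. Mt1f, a metallothionein, read 3307, 3050, 3101, 3330 and 3286 in IAPP and 3967, 4096, 4311, 4546 and 4602 in C4BP, without overlap. That is 1.34-fold (limma, adjusted p = 0.00982, but up to 0.101 without number 2, 3, 4 or 5), and Mt1 was at 1.33-fold with adjusted p = 0.0746. Without IAPP the rises were 2.01-fold for Mt1f and 2.22-fold for Mt1. The test of the difference between effects was not passed (limma, adjusted p = 0.0536 and 0.0669). Mt1 passed with the 10 arrays alone (0.0093), with a mean-variance trend (0.0238) and with dim genes left out (0.0324). It did not pass in the 10 fits without 1 array (adjusted p up to 0.179). Centring, quantile normalization, array weights and the mean of probe sets also left it short (up to 0.0774). Metallothionein genes are near-identical copies whose probes can share RNA, so the 2 are uncertain as separate genes. Nqo1, a quinone reductase and NRF2 target, read 1077, 954, 898, 875 and 973 in IAPP and 1319, 1288, 1232, 1413 and 1126 in C4BP. All C4BP arrays lay above all IAPP arrays, 1.33-fold (adjusted p = 0.0043, but up to 0.104 without number 2 or 4), and the other 14 of 15 NRF2 antioxidant genes did not pass. Gclc, the catalytic subunit of glutathione synthesis, was at 0.23 with adjusted p = 0.0946. Outside the lists the glutathione transferases Gstm4 and Gstm7 each rose by 0.21 on the log2 scale (limma, adjusted p = 0.0025 and 0.0249). In both genes the groups did not overlap. Neither was among the 16 genes that passed in every fit without 1 C4BP or IAPP array or 1 number.

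**Figure D3:**
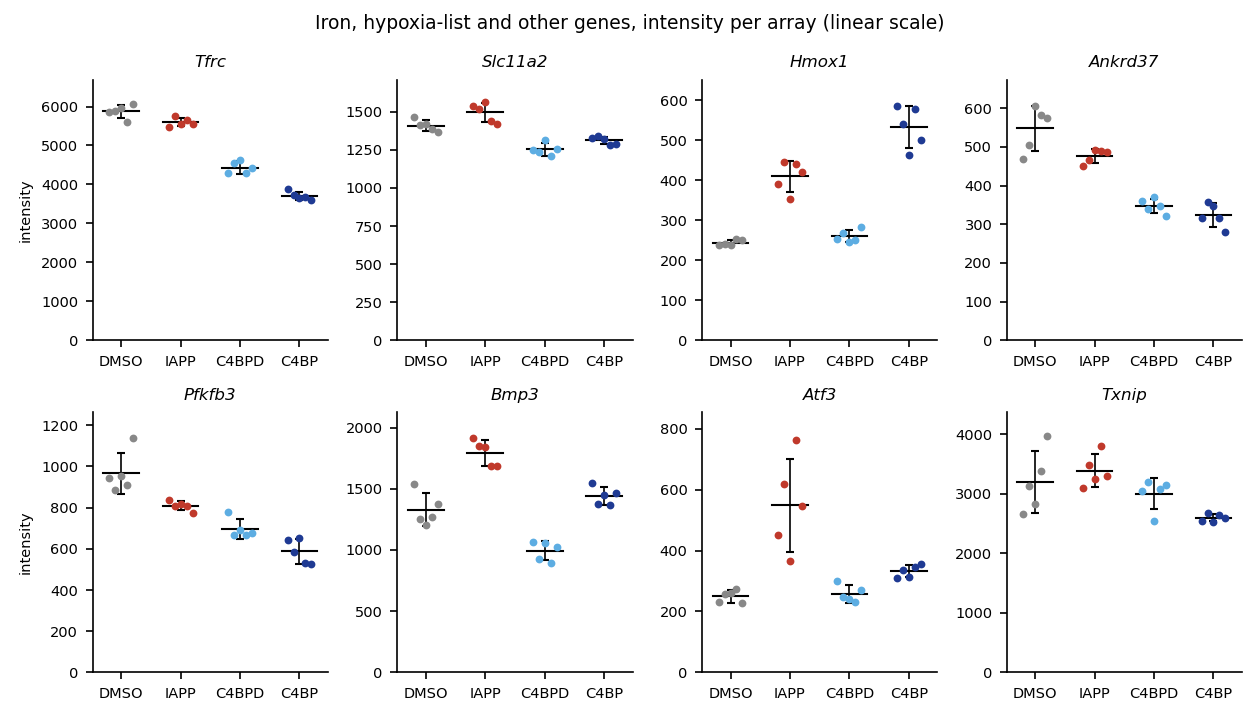
Intensity of 8 further genes on each of the 20 arrays, linear y axis from 0, with the mean and SD over 5 arrays per group. Tfrc in C4BP lies below the other 3 groups, Hmox1 is highest in C4BP, and Atf3 is spread most widely in IAPP.

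Among 14 genes of hypoxia and glycolysis, Ankrd37 and Pfkfb3 fell and 12 did not pass, where 0.231% of all genes fell. Ankrd37, a target of hypoxia-inducible factors, read 451, 466, 493, 490 and 488 in IAPP and 317, 358, 348, 317 and 279 in C4BP. The groups did not overlap, and the level fell by 0.56 on the log2 scale (SE 0.07; limma, adjusted p = 0.000169). Pfkfb3, whose product makes a sugar phosphate that speeds glycolysis, read 835, 808, 820, 808 and 776 in IAPP and 645, 587, 655, 533 and 525 in C4BP. It too was lower in all C4BP arrays, by 0.47 (limma, adjusted p = 0.00174, but 0.0577 without number 4). The collagen hydroxylase P4ha1 was at -0.38 (adjusted p = 0.0828) and the growth factor Vegfa at -0.06.

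Of the stress-induced transcription factors, Atf3 fell while Jun and Ddit3 did not pass. Atf3, a stress-induced factor of the AP-1 and CREB families, read 450, 617, 365, 764 and 545 in IAPP and 310, 337, 314, 347 and 357 in C4BP. Its IAPP arrays were widely spread and the C4BP arrays lay just below the lowest of them. The level fell by 0.68 on the log2 scale (SE 0.13; limma, adjusted p = 0.0179), but the adjusted p was 0.0653 without IAPP 2, 0.159 with the 10 arrays alone, 0.0681 with array weights and up to 0.209 without number 1, 2, 4 or 5. Its mean was 250 ± 20.1 in DMSO. Among 27 AP-1 and immediate early genes the other that passed was Phlda1, an early-response gene, which rose 1.23-fold (limma, adjusted p = 0.00453). Its adjusted p was 0.0705 with the 10 arrays alone and up to 0.09 without number 2 or 4. Shares over all genes were 0.231% falling and 0.374% rising. The list held 6 members (22.2%) at an unadjusted p under 0.05 in limma, against 7.93% of all genes. Jun, a core subunit of AP-1, was at 965 ± 183 in IAPP and 756 ± 72 in C4BP, groups that overlap (log2 difference -0.34, adjusted p = 0.214). Ddit3, the ER stress factor CHOP, was at 909 ± 98.1 and 740 ± 44.4 (-0.29, adjusted p = 0.102, and 0.0462 with dim genes left out).

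Of 24 ER chaperone and unfolded-protein-response genes, 0 passed in limma (10, or 41.7%, at an unadjusted p under 0.05), and 23 had negative differences with a median of -0.09, where 8944 of all 18166 genes were negative. The ER chaperone Hspa5 (BiP) was at -0.11 (adjusted p = 0.126) and the degradation factor Derl3 at -0.27 (adjusted p = 0.236). Eif2ak3, which encodes the unfolded-protein-response sensor PERK and was not on that list, fell by 0.25 (limma, adjusted p = 0.0389). Its C4BP and IAPP arrays overlapped. Cholesterol synthesis showed 1 call of 15, the sterol oxidase Msmo1, which fell by 0.19 (limma, adjusted p = 0.0389), where 0.231% of all genes fell. In that list 5 members (33.3%) had an unadjusted p under 0.05 in limma, against 7.93% of all genes. All 15 members were negative, between -0.19 and -0.03, and the Msmo1 call held only without C4BP 3 or IAPP 5 among the 10 fits without 1 array (adjusted p up to 0.119 in the others; 0.169 with the 10 arrays alone, 0.174 with arrays centred on their median and 0.052 with array weights). Genes of a list that share regulation are not independent of each other, and these signs carry no test.

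Beta-cell genes did not differ past the threshold. In 23 measured genes of beta-cell identity and secretion 0 passed in limma and 2 had an unadjusted p under 0.05, with a median of 0.01. Ins1 was at 5783 ± 273 in IAPP and 5812 ± 470 in C4BP (log2 difference 0.00, SE 0.08), Ins2 at 4268 ± 284 and 4345 ± 387 (0.02, SE 0.10), and the cell's own Iapp at 11240 ± 568 and 11161 ± 695 (-0.01, SE 0.05). The glucose transporter Slc2a2 was at -0.03 and the insulin gene activator Mafa at 0.01. All 23 lay above the median of all probe sets. The glucagon gene Gcg, an alpha-cell marker, also lay above it, at 9400 ± 166 in IAPP and 9984 ± 231 in C4BP (adjusted p = 0.346). Markers of alpha, delta and PP cells summed to 10317 to 10729 in IAPP and 10988 to 11507 in C4BP, with 0 of 8 called, and how far they bear on other results was not tested. For 12 acinar and duct markers the sums were 2604 to 2699 and 2429 to 2762, and for 8 fibroblast markers 3843 to 4058 and 3953 to 4249. Macrophage and leukocyte markers (8) and endothelial markers (4) lay under the median of all probe sets in every member, and 0 members of these 5 marker lists were called in limma, with 3 at an unadjusted p under 0.05.

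Other lists had 0 members past the threshold in limma: 23 NF-kB and inflammatory genes, 19 of the BCL2 family and caspases, 18 complement components and regulators, 10 amylin receptor subunits and amyloid proteases, 13 heat shock proteins, 16 of autophagy and lysosome, 16 of mitosis and DNA replication, 11 ERK feedback genes, and 11 and 13 of fatty acid synthesis and oxidation. At an unadjusted p under 0.05 these held between 0 (heat shock proteins) and 5 members, against 7.93% of all genes. The 5 were of mitosis and DNA replication (31.2% of 16), where 14 of 16 differences were positive with a median of 0.06. The cells' own C4BP genes were dim, C4bpa at 148 ± 18.1 and 148 ± 15.2, and C4bpb at 45.7 ± 6.21 and 48.6 ± 3.01. Ide, a protease that degrades insulin and amylin, was at -0.01.

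**Figure D4:**
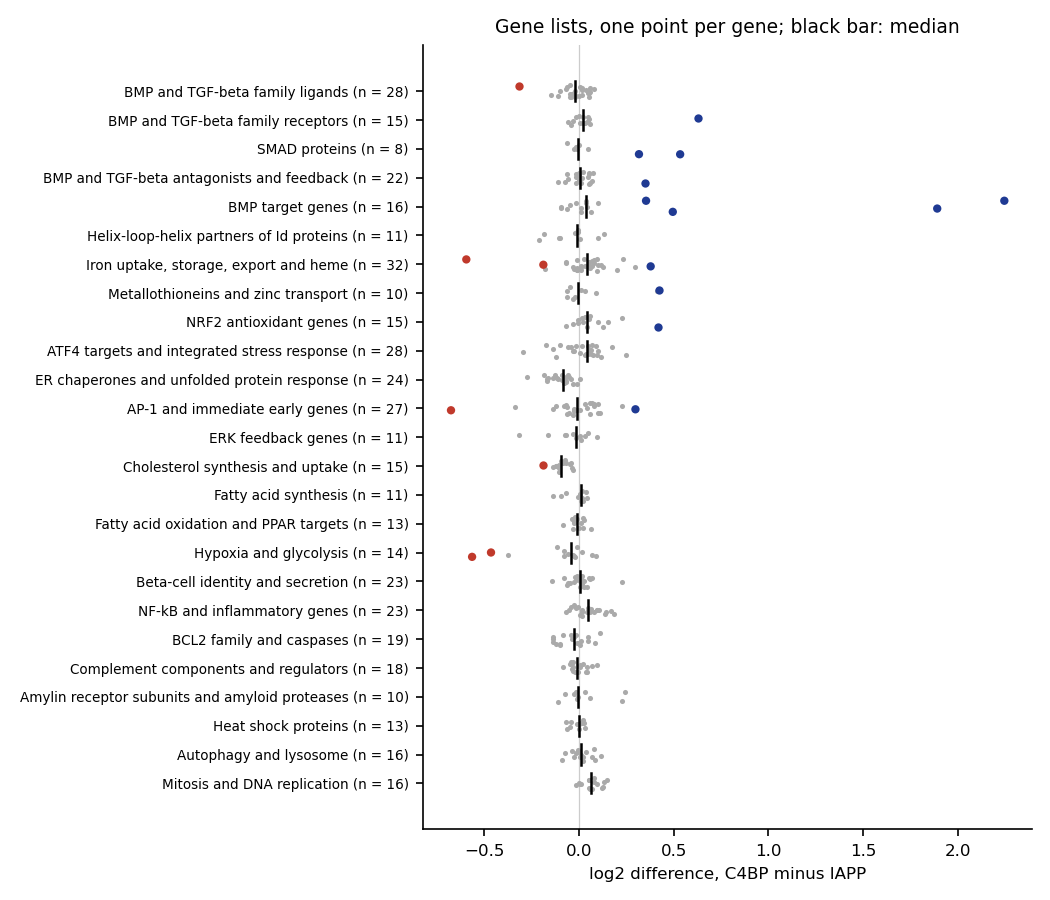
Log2 difference between C4BP and IAPP for every measured member of 25 gene lists, 1 point per gene, with a black bar at the list's median. Blue points rose and red points fell past the threshold; lists of BMP targets and SMAD proteins hold rising outliers while their medians stay near 0.

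Several of the largest differences were in genes outside these lists. Plekhg6 read 327, 333, 363, 333 and 374 in IAPP and 738, 807, 771, 724 and 830 in C4BP. The arrays were cleanly split, with a 2.24-fold rise (log2 difference 1.16, SE 0.07; limma, adjusted p = 5.6e-09). Micalcl read 146, 159, 143, 138 and 147 in IAPP and 265, 225, 249, 266 and 249 in C4BP, a 1.71-fold rise that starts from a level under the median of all probe sets. Barhl1, a homeobox factor of neurons, read 942, 847, 899, 859 and 849 in IAPP and 1466, 1364, 1413, 1232 and 1242 in C4BP, a 1.53-fold rise. Both sets of arrays were again separate in these genes. Slc43a2, a transporter of neutral amino acids, rose 1.36-fold and Brs3, a bombesin-family receptor, 1.39-fold. Calb1, the calcium buffer calbindin, rose 1.38-fold (limma, adjusted p = 0.00574, but 0.0516 with the 10 arrays alone and 0.107 without number 4). Kctd8, an auxiliary subunit of GABA-B receptors, rose 1.40-fold at a level under that median.

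The remaining falls among the 15 largest were between 0.32 and 0.41 on the log2 scale. Narf fell by 0.41 (limma, adjusted p = 0.00299, but 0.0588 without number 2). So did Ak4, a mitochondrial adenylate kinase (adjusted p = 0.0179, but up to 0.141 without any 1 number). Ranbp3l fell by 0.37 (limma, adjusted p = 0.00453, but up to 0.0798 without number 2 or 4). Gad1, which makes the transmitter GABA, fell by 0.32 (adjusted p = 0.0116, but up to 0.154 without number 2, 3 or 4). Txnip, a thioredoxin-binding protein induced by glucose, read 3095, 3485, 3251, 3808 and 3307 in IAPP and 2547, 2680, 2529, 2645 and 2600 in C4BP. Its groups did not overlap and it fell by 0.38, yet the call (adjusted p = 0.0426) held in 1 of the 10 fits without 1 array, that without IAPP 1, and was lost after quantile normalization (0.0588) and with array weights (0.0543). With the 10 arrays alone the calls of Narf, Ak4, Gad1, Cnnm1, Gba3, Tac1, Neto1 and Dio1 were lost, with adjusted p between 0.0693 and 0.223. The call of Ak4 was lost without C4BP 4, C4BP 5, IAPP 1 or IAPP 3 (adjusted p up to 0.0664). Gba3, Tac1, Neto1 and Dio1, which encode a beta-glucosidase, the precursor of substance P, a receptor partner and a thyroid hormone deiodinase, fell by 0.39, 0.36, 0.34 and 0.33. Among the fits without 1 array the call of Gba3 held without C4BP 3, C4BP 4 or IAPP 1, and that of Tac1 without C4BP 2, IAPP 1 or IAPP 3. That of Neto1 held without C4BP 1, C4BP 4, IAPP 2 or IAPP 5, and that of Dio1 without C4BP 4 or C4BP 5. Their adjusted p was otherwise at most 0.0943, 0.0819, 0.0801 and 0.138. Gba3, Neto1, Dio1 and Ranbp3l lay under the median of all probe sets in both groups. Cnnm1 and Hspa12a, at -0.32 and -0.36, lost their calls without C4BP 4 or IAPP 3 (adjusted p at most 0.0558 and 0.0527). Hspa12a, a relative of the HSP70 chaperones, has 2 probe sets, and with their mean in place of the brightest its adjusted p was 0.236.

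Whether C4BP acted alike with and without IAPP was tested by setting C4BP against IAPP beside C4BPD against DMSO, which share no array. Both came from the same fit with a shared variance per gene, so their calls are not independent. Without IAPP 351 genes passed (1.93%), 212 higher and 139 lower. The 2 lists had 71 genes in common in the same direction, 64.5% of the 110 and 20.2% of the 351, and 0 in opposite directions. Of the 68 genes that rose with IAPP, 44 rose without it and 66 had a positive difference there, as 45.4% of all genes did. Of the 42 that fell, 27 fell and 39 were negative. The median difference of the 68 was 0.29 with IAPP and 0.29 without, and that of the 42 was -0.27 and -0.21. These medians are over genes picked for passing with IAPP, and the shared count was 47 without C4BP 4, 41 without IAPP 3, 125 with dim genes left out, and between 17 and 48 without all 4 arrays of 1 number. With array weights 79 were shared, 12.3% of the 644 that then passed without IAPP.

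Id3 rose 4.74-fold with IAPP and 4.74-fold without, and Id1 3.71-fold and 3.79-fold. Smad9 was at 0.53 and 0.59 on the log2 scale, Acvr1c at 0.63 and 0.68, Barhl1 at 0.61 and 0.62, and Pfkfb3 at -0.47 and -0.47. The effect with IAPP minus that without was 0.00 (SE 0.18) for Id3 and -0.03 (SE 0.08) for Id1 on the log2 scale, and the test of that difference was not passed for these 6 genes (limma, adjusted p = 1). Smaller effects with IAPP stood in Smad7 (0.32 against 0.76), Bambi (0.35 against 0.62) and Plekhg6 (1.16 against 1.5), but that test was not passed (adjusted p = 0.154, 0.435 and 0.916). Tfrc was at -0.60 with IAPP and -0.41 without (0.47 for the difference). Atf3 was at -0.68 and 0.04, Hmox1 at 0.38 and 0.09, and Txnip at -0.38 and -0.08, and for these 3 the difference gave adjusted p of 0.47, 1 and 1.

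The effects differed past the threshold in 9 genes (0.0495%), and each was called without IAPP and not with it. None of the 110 was among them. Trib3, a pseudokinase induced by ATF4, went from 259 in DMSO to 482 in C4BPD, and from 661 ± 145 in IAPP to 607 ± 35.6 in C4BP. The effect with IAPP was lower on the log2 scale by 1 unit (difference -1.0; limma, adjusted p = 0.0221). Chac1, a glutathione-degrading ATF4 target, went from 349 to 761 without IAPP and from 675 ± 52 to 799 ± 15.1 with it (-0.87, adjusted p = 0.00949). Slc1a4, an amino acid transporter, went from 806 to 1388 and from 1325 ± 56.3 to 1495 ± 107 (-0.61, adjusted p = 0.0118). In IAPP alone every array of these 3 genes lay above every DMSO array. The same holds for Cars1 and Iars1, the cysteine and isoleucine tRNA ligases, whose effects differed by -0.45 and -0.34. All 9 genes were picked by a difference between effects, and it was negative in each. Such a pick itself favours high IAPP and low DMSO values, and a call without IAPP but not with it. Their levels and calls are therefore a description.

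The other 4 genes were Stap2, a signalling adaptor (-0.46), Klf6, a zinc-finger factor (-0.39), Plppr1 (-0.38) and Wipi1, an autophagy protein (-0.37). Among 28 ATF4 targets, 0 passed in C4BP against IAPP (limma, 6 at an unadjusted p under 0.05), 11 rose in C4BPD against DMSO, where 1.17% of all genes rose, and 3 (Trib3, Chac1 and Slc1a4) passed the test of the difference. Chac1, Slc1a4 and Cars1 passed in all 20 fits that left out 1 array. The other 6 passed in between 2 and 13 of them, and the count of 9 fell to 3 without C4BP 3 or C4BPD 5, to 4 without C4BP 4, C4BPD 2, C4BPD 3, DMSO 2, IAPP 2 or IAPP 3, and to 5 without C4BPD 4 or DMSO 1. Leaving out all 4 arrays of 1 number left 0 or 1 gene.

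**Figure D5:**
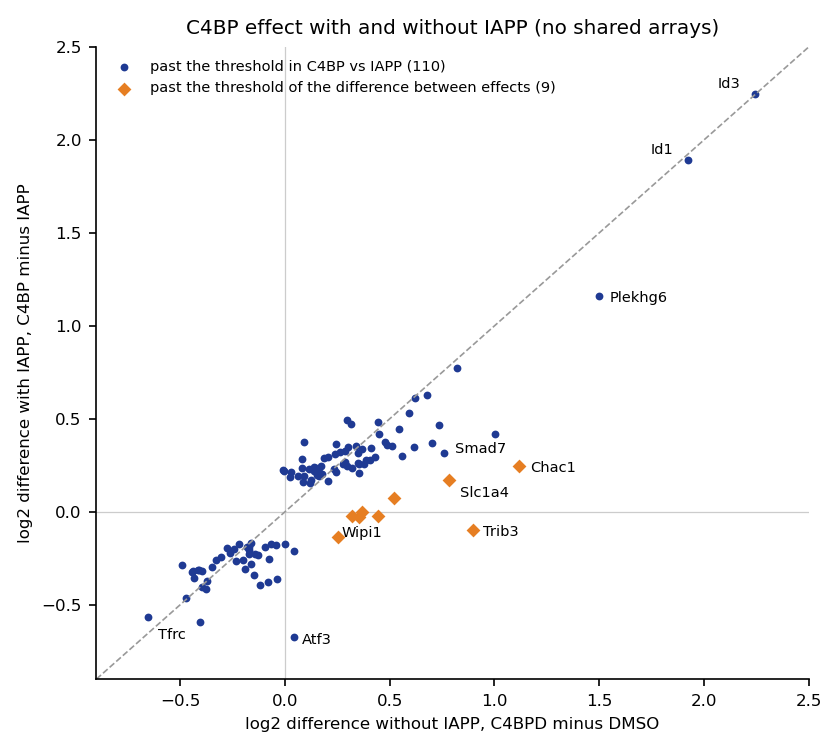
Log2 difference without IAPP (C4BPD minus DMSO, x axis) against that with IAPP (C4BP minus IAPP, y axis), from 20 arrays with none shared between the axes; the dashed line marks equal effects. Blue points are the 110 genes past the threshold with IAPP. Orange diamonds are the 9 genes whose effects differed, all with a negative difference, which by itself places them below the line.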

How the data were processed

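Total RNA of 20 wells was hybridised to Affymetrix Rat Gene 2.0 arrays. The deposited values are linear-scale intensities, 1 per probe set and array, which the authors had already normalized. The submitters' processing notes name Affymetrix Expression Console, and its version is not given in the sources used here, nor is its algorithm. Of 36685 probe sets, 190 controls were left out. Symbols came from GEO's platform annotation, with 1 symbol for 18511 probe sets, several for 575 and none for 17409, and the brightest probe set stood for each of 291 genes with more than 1. Of the 18166 genes, 18060 had an Entrez ID in RefSeq GRCr8, and 0 symbols differed. No filter on dim genes was used, and no detection calls were used.

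A model of 4 group means was fitted to log2 intensity of all 20 arrays by limma (3.58.1, under R 4.3.3; moderated variances with 16 residual degrees of freedom) and tested on simulated data. No 2 arrays had identical values. The members and the gene lists were chosen with earlier results of these data known. Named genes are the 15 largest rises and 15 largest falls past the threshold, list members past it, genes whose 2 effects differed, and a fixed list. Members of the BMP and iron lists, and others given as values, were named for their role. Alternatives covered scaling, block, weights, trend, probe sets, dim genes, arrays and the grouping label.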

Additional observations from a re-analysis of the deposited data

Results flagged for a closer look

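Id4 read 1665 in C4BP 1, below the other 4 C4BP arrays at 1941 to 2051. Smad7 read 115 in IAPP 1, above the other 4 IAPP arrays at 101 to 105. Cars1 read 1206 in C4BP 2 where the others read 1330 to 1369, and Chac1 read 773 in C4BP 1 where the others read 802 to 811. In these 4 cases the gap to the nearest array, over the range of the 5, passed Dixon's limit of 0.71. Of the IAPP and C4BP groups of 54 named genes, 108 were looked at, and chance marks about 1 in 20.

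The effect of C4BP with IAPP was lower than that without it in 9 genes, by limma's test of the difference. On the log2 scale the difference was -1.0 for Trib3, -0.87 for Chac1, -0.61 for Slc1a4, -0.46 for Stap2 and -0.45 for Cars1. It was -0.39 for Klf6, -0.38 for Plppr1, -0.37 for Wipi1 and -0.34 for Iars1.

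Among 17984 probe sets with several symbols or none, 14 passed the threshold between C4BP and IAPP in a fit of all probe sets, 8 higher and 6 lower. They were not used for any gene.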

How the results depend on the processing

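Id1 was at -0.81 (limma, adjusted p = 1) and 0 genes passed when the treatment field gave the groups (553 at an unadjusted p under 0.05). The 110 genes of C4BP against IAPP became 33 with the 10 arrays alone (24 higher, 32 of them among the 110), 70 with arrays centred on their median (70% of them higher, against 61.8%), 202 among brighter genes only and 70 over all probe sets. They became 66, 28, 45, 18 and 52 without all arrays of number 1, 2, 3, 4 and 5, and between 58 and 97 without 1 C4BP or IAPP array. Quantile normalization gave 107, array weights 107, a mean-variance trend 158 and the mean of probe sets 108. Centring moved the median of all genes from 0.00133 to 0.00423.

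Whether arrays of the same number pair is unsettled: 4 of 5 correlations of deviations from the group means were over 0.1 (lowest -0.00899, median 0.318), and 4 of 5 C4BP arrays were closest to their own number. With the replicate number as a block 352 genes passed, all 110 among them, 50 with the 10 arrays alone, and the genes shared with C4BPD against DMSO rose from 71 to 217. Ddit3 and Mt1 passed with the block. Genes whose effects differed numbered 18 with the block, between 3 and 10 without 1 array, 1 without number 2 and 0 without number 1, 3, 4 or 5 (limma, 816, 718, 692 and 524 at an unadjusted p under 0.05). The other settings gave between 7 and 13.

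Of the 37 named genes past the threshold, 13 kept their call in every fit counted here, all with groups from the titles. The call was lost in 14 without some single C4BP or IAPP array, in 24 without some number and in 20 in some other setting. Fits over all probe sets, or without 1 DMSO or C4BPD array, were not counted here. Of the 110, 16 passed in every fit without 1 C4BP or IAPP array or 1 number, among them Id1, Id3, Smad9, Acvr1c, Bambi, Tfrc, Ankrd37 and Plekhg6. The cause of these changes was not tested beyond the fewer arrays or genes that a setting leaves. Genes with both means under the median of all probe sets (6 of the 110) may lie near background.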
